A study of Danio rerio with 17 samples.

Results

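The forkhead genes foxc1a, foxc1b, foxf1, foxf2a, foxf2b and foxq1a, 6 of the 30220 genes in the deposited table, were followed across sorted mural, endothelial and remaining cells of zebrafish embryos. They were taken by symbol, and all 6 had reads in every library and passed the filter on low values in every comparison. RefSeq tables for assembly GRCz12tu place foxc1a, foxf2a and foxq1a along a single chromosome, and foxc1b and foxf2b along another with foxq1b, which is not among the 6, while foxf1 lies apart. The reference tables gave the identifiers ENSDARG00000055398 for foxc1b, ENSDARG00000015399 for foxf1, ENSDARG00000017195 for foxf2a and ENSDARG00000070389 for foxf2b, and no identifier was matched to foxc1a or foxq1a. The table held 49 further forkhead genes, which serve for comparison.

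Forkhead proteins bind DNA through a winged-helix domain and act as transcription factors. In vertebrates Foxc1 works in head mesenchyme, neural crest and periocular tissue and is needed for normal cerebral vessels and their mural cells, the smooth muscle cells and pericytes that wrap the endothelium. Foxf1 is a regulator of visceral mesoderm and a target of Hedgehog signaling, and in the mouse Foxf2 is needed for brain pericytes and the blood-brain barrier. Foxq1 has been studied mostly in epithelia, among them the hair follicle of the mouse. The a and b copies in zebrafish descend from a genome duplication in the ancestor of teleost fish.

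Fish carried fluorescent transgenes, each driven by the promoter of the gene it is named for, and cells were collected by fluorescence-activated sorting of dissociated embryos. Tg(acta2:egfp) embryos at 4 days after fertilization gave 3 libraries of acta2 positive cells, labelled mural, and 3 of negative cells, labelled non-mural. Tg(acta2:mcherry);(foxc1b:egfp) embryos of the same age gave 2 positive and 3 negative libraries with the same cell labels, here called the acta2/foxc1b line. Tg(kdrl:mcherry) embryos at 5 days gave 3 libraries of endothelial cells and 3 of non-endothelial cells. The cells of the kdrl line had been fixed ahead of the sort and went through another library kit, so age, fixation, kit and the marked cell type cannot be told apart between the kdrl line and the acta2 lines. Which colors were required of a positive cell in the acta2/foxc1b line is not given in the sources used here. Nothing in the labels ties a replicate to a clutch of its own, so a p-value here measures the spread between libraries, which may be technical. All values are normalized counts, that is, reads after division by the size factor of their library. The 11 libraries of the acta2 lines were scaled together and the 6 kdrl libraries apart, so levels are ordered within each set. Levels are not compared between genes, since transcript lengths were not used.

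Libraries held 10474235 to 40868765 reads and 23590 to 29445 genes with a read. The transcripts of acta2 and kdrl, whose promoters drive the reporters, followed the sorts. This does not show that other cells were absent, and markers of other cell types are given below. Transcripts of acta2 ran from 16196 to 44413 normalized counts in the acta2 positive and acta2/foxc1b positive libraries and from 45.7 to 147 in their negative libraries, and kdrl ran from 5389 to 19330.1 in kdrl positive against 232 to 305 in kdrl negative libraries. Acta2/foxc1b negative replicate 2 stood apart from its replicates, with 12 epidermal markers taking 6.52% of its reads against 0.346 and 0.567%, and with neuronal markers at 0.00297% against 0.466 and 0.353%. Most results that use it are given with and without it. Of the 16 list genes named below as called over both acta2 lines, 16 were called in the same direction without it. They were picked by adjusted p in the fit that held it, and the share of all genes called was 9.86% with it and 17.2% without it. In sorted bulk RNA, fewer cells with a transcript and less of it per cell cannot be told apart.

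**Figure D1:**
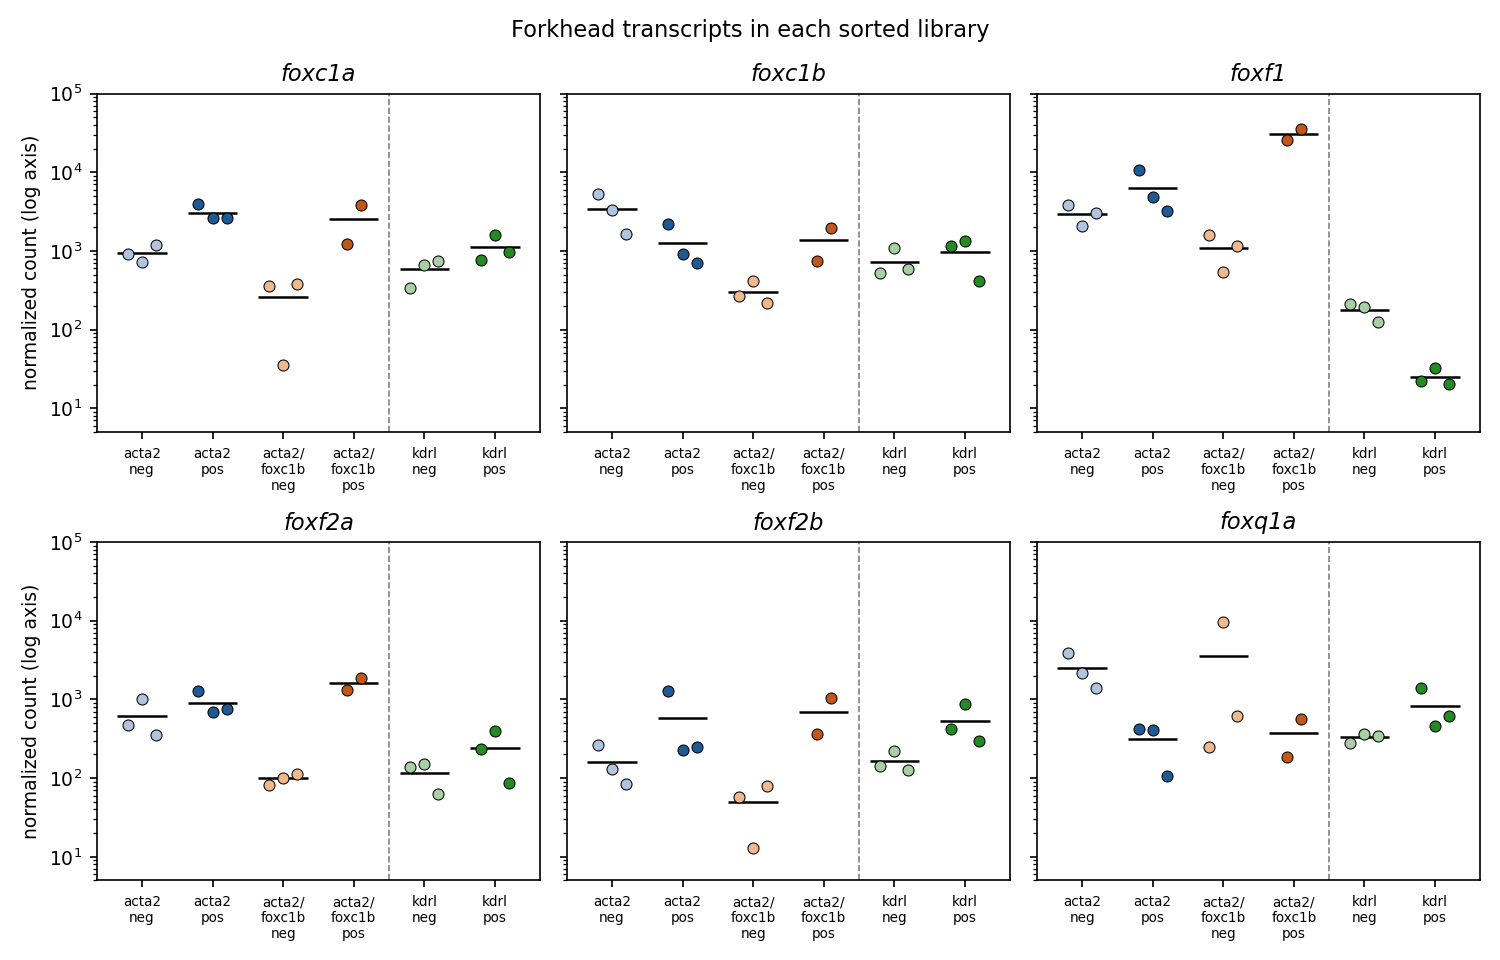
Normalized counts (vertical log axis) of the 6 forkhead genes in each of the 17 libraries, by sorted group; points are libraries, bars are group means, and the dashed line parts the sets that were scaled separately. For foxf1 the 2 acta2/foxc1b positive libraries sit at 25323 and 35571 against 533 to 1593 in the negative libraries of that line. The 3 kdrl positive libraries sit at 20.4 to 32.1 against 126 to 210 in kdrl negative libraries, and levels are not compared across the dashed line.

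The mural sort was examined to see which of these genes go with acta2 reporter cells. Over both acta2 lines together, with the line as a term in the fit, foxc1a, foxf1, foxf2a and foxf2b were higher in positive cells, by 4.41- to 6.49-fold. These 4 of the 6 genes passed the test, where 9.86% of all 20884 genes tested did so in either direction. No member passed in the lower direction, foxq1a had a log2 change of -2.55 (SE 0.80, adjusted p = 0.0638), and foxc1b one of 0.11 (SE 0.64, adjusted p = 0.94; 0.06, adjusted p = 0.967, without acta2/foxc1b negative replicate 2). Tests were limma-trend fits of log2(value + 1) across all genes, two-sided, with Benjamini-Hochberg adjustment and a call at adjusted p under 0.05.

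In the acta2 line taken alone, foxc1a rose and foxq1a fell, 2 of the 6 genes where 7.00% of all genes passed. In the acta2/foxc1b line 0 of the 6 passed in limma, where 0.0271% of all genes, 6 of 22116, did so. In edgeR 0 of the 6 passed, but 0.00% of all genes did, so that count says nothing particular about the 6. DESeq2 called more of the 6 in this line, against 7.65% of genes, as given in the last section. In limma the unadjusted p was under 0.05 for 5 of the 6 in this line, and for 11.4% of all genes. The positive and negative libraries did not overlap for foxc1a and foxq1a in the acta2 line, where the libraries of 30.8% of genes did not. They did not overlap in the acta2/foxc1b line for 5 of the 6, all but foxq1a, where those of 29.6% of genes did not. Without acta2/foxc1b negative replicate 2, foxf1 and foxf2a passed in that line, 2 of the 6 against 3.57% of genes.

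**Figure D2:**
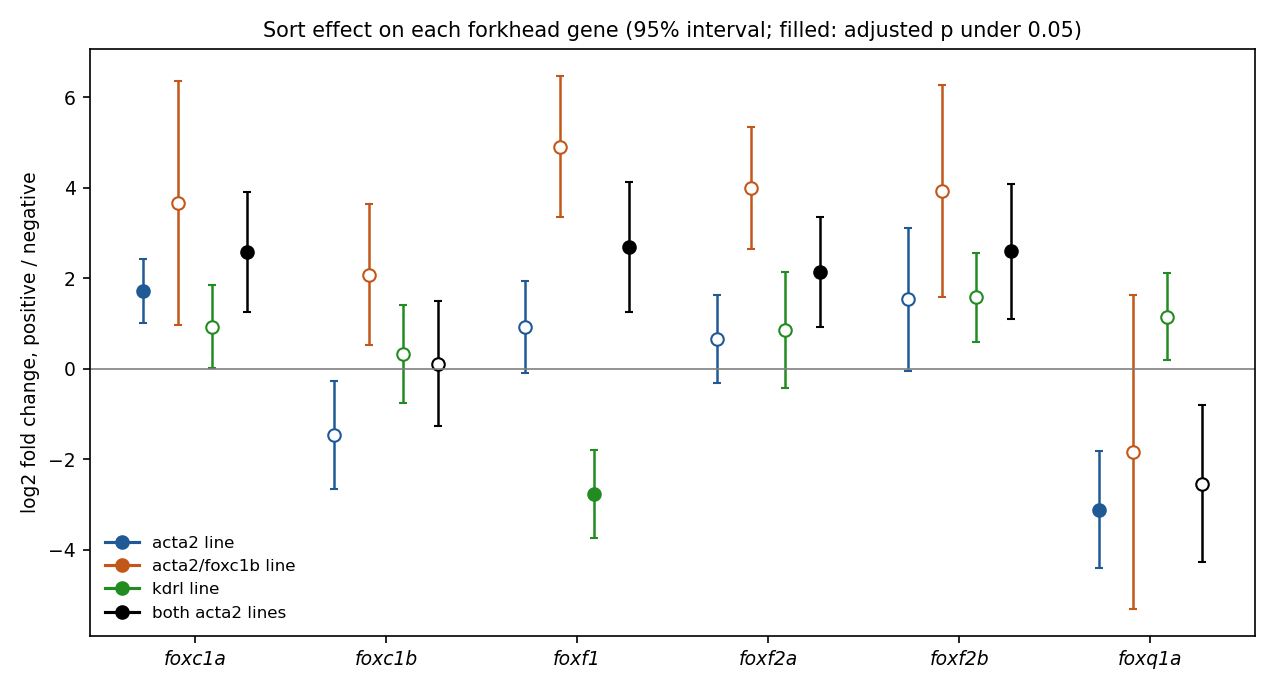
Log2 fold change of positive over negative cells (vertical axis) with its 95% interval for each gene in each line and in both acta2 lines together; filled points passed the test. foxf1 stands at 4.91 in the acta2/foxc1b line and -2.76 in the kdrl line, and foxq1a at -3.11 in the acta2 line and 1.16 in the kdrl line.

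The foxc1a transcript stood at 905, 719.8 and 1187 normalized counts in the 3 acta2 negative libraries and at 3923, 2653 and 2643 in the 3 positive libraries. All positive libraries were above all negative ones, and the transcript rose 3.29-fold (log2 fold change 1.72, SE 0.31, adjusted p = 0.0151). For the acta2/foxc1b line the values were 362, 35.8 and 380.4 in negative and 1238 and 3828 in positive libraries. The lowest value, 22 reads, was that of negative replicate 2. The log2 fold change was 3.66 (SE 1.14, adjusted p = 0.292), and 2.55 (adjusted p = 0.0691) without that library. Over both lines it rose by 2.58 on the log2 scale (SE 0.62, adjusted p = 0.0206), and by 2.05 (adjusted p = 0.00134) without that library. The call in the acta2 line alone was lost without acta2 negative replicate 2 (log2 fold change 1.54, adjusted p = 0.0717).

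The foxc1b transcript gave another picture, although its promoter drives a reporter of the acta2/foxc1b line. It stood at 5294, 3313 and 1655 in acta2 negative and at 2199, 905 and 693 in acta2 positive libraries. The groups overlapped, the positive one was lower on average, and the log2 change of -1.46 (SE 0.52, adjusted p = 0.129) did not pass in limma, edgeR or DESeq2. Values in the acta2/foxc1b line were 266, 415 and 215 in negative and 744 and 1977 in positive libraries. Here both positive libraries were above all negative ones, a difference that is not independent of a sort that may have used the foxc1b reporter, and the log2 fold change was 2.07 (SE 0.66, adjusted p = 0.3; 2.34, adjusted p = 0.0766, without negative replicate 2). The sort effects of the lines differed by 3.54 on the log2 scale (SE 0.87, adjusted p = 0.382; 3.80, adjusted p = 0.155, without negative replicate 2), a difference that did not pass the test. Mean foxc1b in acta2/foxc1b positive cells, 1361 ± 872 (SD, n = 2), was close to that in acta2 positive cells, 1266 ± 815 (SD, n = 3), and the highest group mean was that of acta2 negative cells, 3421 ± 1822 (SD, n = 3).

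The visceral mesoderm regulator foxf1 was far higher in the positive cells of the acta2/foxc1b line than in the other groups of its set. It stood at 3792, 2046 and 3050.5 normalized counts in acta2 negative and at 10637, 4784 and 3215 in acta2 positive libraries, with groups that overlapped and a log2 change of 0.93 (SE 0.45, adjusted p = 0.246). Cells of the acta2/foxc1b line gave 1593, 533 and 1167 in negative libraries and 25323 and 35571 in positive libraries. These positive libraries were 30.1-fold above the negative ones in the fit (log2 fold change 4.91, SE 0.66), with an adjusted p of 0.0707 that missed the threshold. Without negative replicate 2 the log2 fold change was 4.46 and passed (adjusted p = 0.0144). Over both acta2 lines foxf1 rose by 2.70 on the log2 scale (SE 0.67, adjusted p = 0.0239; 2.34, adjusted p = 0.0157, without that library).

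Both foxf2 copies, of which the mouse counterpart acts in brain pericytes, were higher in positive cells over the acta2 lines together. The foxf2a transcript stood at 473, 997 and 356 in acta2 negative and at 1260.4, 696 and 754 in acta2 positive libraries, which overlapped (log2 fold change 0.66, SE 0.43, adjusted p = 0.393). It stood at 82.8, 101 and 113 in acta2/foxc1b negative and at 1329 and 1868 in positive libraries. In this line the groups were far apart and the negative libraries close together (log2 fold change 3.99, SE 0.57, adjusted p = 0.0781; 4.01, adjusted p = 0.0183, without negative replicate 2). Over both lines foxf2a rose 4.41-fold (SE 0.56 on the log2 scale, adjusted p = 0.0315; adjusted p = 0.0275 without that library), a call that edgeR did not make (adjusted p = 0.0611).

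The foxf2b transcript stood at 261, 131 and 85.3 in acta2 negative and at 1276, 228 and 248 in acta2 positive libraries. Positive replicate 1 stood well above the other positive libraries, and the log2 fold change was 1.53 (SE 0.70, adjusted p = 0.218). In the acta2/foxc1b line it stood at 57.3, 13.0 and 80.2 in negative, the lowest resting on 8 reads, and at 363 and 1035 in positive libraries. The log2 fold change there was 3.92 (SE 0.99, adjusted p = 0.2; 3.16, adjusted p = 0.0544, without negative replicate 2). Over both lines foxf2b rose by 2.60 on the log2 scale (SE 0.69, adjusted p = 0.0324; 2.18, adjusted p = 0.0183, without that library).

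Conversely, foxq1a was lower in positive cells of the acta2 line. It stood at 3873, 2182 and 1407 normalized counts in acta2 negative and at 418, 406 and 107 in acta2 positive libraries, and fell by 3.11 on the log2 scale (SE 0.57, adjusted p = 0.0164), or 8.65-fold. The groups did not overlap, and the call was lost without acta2 negative replicate 1 (adjusted p = 0.0542) or replicate 2 (adjusted p = 0.0697). In the acta2/foxc1b line it stood at 251, 9663 and 623 in negative and at 184 and 558 in positive libraries. A single library, negative replicate 2, held most of the negative sum, and the log2 fold change went from -1.84 (SE 1.47, adjusted p = 0.726) to -0.30 (adjusted p = 0.86) without it. Over both lines the log2 change of -2.55 missed the threshold in limma, passed in edgeR (adjusted p = 0.0429), and passed in limma without that library (-1.99, adjusted p = 0.0407). The 12 epidermal markers summed to 3552677 normalized counts in that library, and to 396398 in acta2 negative replicate 1, the next highest for foxq1a in this set. They ran from 8591 to 102875 in the positive libraries of both lines and from 58061 up in the negative ones, with 0 of 12 called in the acta2 line and 3 of 12 lower over both lines, or 4 of 12 without that library. Other markers did fall in the acta2 line, with 7 of 8 lens, 5 of 8 erythroid and 5 of 10 neuronal markers lower and 0 higher. The part of any of these cells in the foxq1a difference was not tested.

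The calls over both acta2 lines leaned on single libraries. Without acta2/foxc1b positive replicate 2, 0 of the 6 genes passed in limma, where 5.18% of genes did, and the log2 fold changes were 2.09 for foxc1a, 2.17 for foxf1, 1.69 for foxf2a and 2.08 for foxf2b (adjusted p = 0.0779 to 0.114). Without acta2 positive replicate 1, 1 of the 6 passed, against 6.72% of genes, and without acta2/foxc1b positive replicate 1, 1 of the 6, against 7.38%. Without acta2 negative replicate 3, 2 of the 6 passed, against 6.13% of genes. Without acta2/foxc1b negative replicate 2, 5 of the 6 passed, against 17.2% of genes. In the authors' deposited table, 0 of the 6 genes passed an adjusted p of 0.05 in the acta2 line, where 5.65% of genes did, with foxq1a at 0.0617 and foxc1a at 0.173. All 6 passed for the acta2/foxc1b line in the authors' deposited table, where 11.5% of genes did. The log2 fold changes given there were 4.20 for foxf1, 3.49 for foxf2a, 2.78 for foxf2b, 2.48 for foxc1a, 1.57 for foxc1b and -2.29 for foxq1a. Whether the authors' fit shrank these values is not given in the sources used here, so their sizes may not match the limma scale.

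Summed levels of markers of other cell types were set beside these genes. Of 14 skeletal muscle markers, 0 passed in either direction in the acta2/foxc1b line, yet their sum was 230045 and 406002 normalized counts in the positive libraries against 13086 to 41373 in the negative ones. Without negative replicate 2, 9 of these 14 passed as higher and 1 as lower. In the acta2 line the sum was 19209 to 33614 in positive and 26336 to 44402 in negative libraries, with 3 of 14 lower. The 11 cartilage markers summed to 107483 to 218820 in acta2 positive against 53862 to 103242 in acta2 negative libraries, with 3 of 11 higher. They summed to 93112 and 240280 in acta2/foxc1b positive against 33734 to 53845 in negative libraries, with 0 of 11 called there with or without negative replicate 2. No marker of either list was at 0 throughout a group. The part of these cells in the levels of foxc1a and the foxf genes was not tested.

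The lines were also compared directly within the sorted classes. Between acta2/foxc1b positive and acta2 positive cells 0 of the 6 genes passed, where 0.196% of genes did, and the libraries did not overlap for 2 of the 6, foxf1 and foxf2a, where those of 24.9% of genes did not. The foxf1 level was 30447 ± 7246 (SD, n = 2) against 6212 ± 3911 (SD, n = 3), a log2 difference of 2.46 (SE 0.59, adjusted p = 0.205) that passed when acta2/foxc1b negative replicate 2, a library of neither group, was left out of the shared fit (adjusted p = 0.0421). The foxf2a level was 1599 ± 381 (SD, n = 2) against 904 ± 310.4 (SD, n = 3), a log2 difference of 0.85 (SE 0.51, adjusted p = 0.761). The interval of the difference was -1.28 to 1.53 on the log2 scale for foxc1b and -2.35 to 1.40 for foxc1a.

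Between the negative cells of the lines 0 of the 6 passed in limma, where 0.00% of 22439 genes did, with 1736 genes at an unadjusted p under 0.05, and 0 genes passed in edgeR. All of foxc1a, foxc1b, foxf1, foxf2a and foxf2b were lower in every acta2/foxc1b negative library than in any acta2 negative library, 5 of the 6 where the libraries of 15.9% of genes did not overlap. The mean of foxc1b was 299 ± 104 (SD, n = 3) against 3421 ± 1822 (SD, n = 3), a log2 difference of -3.41 (SE 0.58, adjusted p = 0.165). That difference is not independent of a sort that may have used the foxc1b reporter. The mean of foxf2a was 99.0 ± 15.3 (SD, n = 3) against 609 ± 341 (SD, n = 3), or -2.48 (SE 0.46, adjusted p = 0.188). The log2 differences were -2.42 for foxc1a, -1.83 for foxf2b and -1.52 for foxf1. Without negative replicate 2 they were -3.68 for foxc1b (adjusted p = 0.0727), -2.50 for foxf2a (adjusted p = 0.0754), -1.30 for foxc1a, and -1.07 for both foxf1 and foxf2b. The lines differ in their transgenes, and their negative cells in make-up. Neuronal markers took 0.466, 0.00297 and 0.353% of reads in acta2/foxc1b negative libraries, against 0.0754 to 0.148% in acta2 negative ones. Cartilage markers summed to 33734 to 53845 against 53862 to 103242 normalized counts. The part of these in the differences was not tested.

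The test of whether the sort effect itself differed between the acta2/foxc1b and the acta2 line passed for 0 of the 6 genes in limma and in edgeR, where 0.00% of 23438 genes did, with 1169 at an unadjusted p under 0.05. The differences of log2 fold changes were 3.98 (SE 0.80, adjusted p = 0.192) for foxf1, 3.54 for foxc1b and 3.33 (SE 0.69, adjusted p = 0.218) for foxf2a. That of foxc1b is not independent of a sort that may have used its reporter. Without acta2/foxc1b negative replicate 2, 0 of the 6 passed, against 0.233% of genes, with 3.53 (adjusted p = 0.0729) for foxf1 and 3.35 (adjusted p = 0.089) for foxf2a. Within the 11 libraries of this set the group means of foxf1 and foxf2a ran in the same order, highest in acta2/foxc1b positive cells, then acta2 positive, acta2 negative and acta2/foxc1b negative cells. For both, the libraries of neighbouring groups overlapped only between acta2 positive and acta2 negative cells. The foxf2b means ran in that order too, and only the lower pair of groups did not overlap.

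The endothelial sort showed the reverse for foxf1. It stood at 210.3, 194 and 126 normalized counts in kdrl negative and at 22.5, 32.1 and 20.4 in kdrl positive libraries, and fell 6.79-fold in endothelial cells (log2 fold change -2.76, SE 0.44, adjusted p = 0.00664). It was the only one of the 6 genes to pass, where 5.96% of genes did, and all endothelial libraries were below all negative ones. The positive libraries held 9 to 47 reads of foxf1. The kdrl libraries were taken as pairs by their replicate number, and with the pair as a block 2 of the 6 passed, against 13.5% of genes, foxf1 (adjusted p = 0.004) and foxf2b (adjusted p = 0.0123). Libraries did not overlap for foxc1a, foxf1, foxf2b and foxq1a, 4 of the 6 where those of 29.5% of genes did not.

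The foxf2b transcript stood at 142, 222 and 128 in kdrl negative and at 418, 867 and 299.8 in kdrl positive libraries. Every endothelial library was above every negative one, with a log2 change of 1.58 (SE 0.44, adjusted p = 0.0645) that passed with the pairing. Its paralog foxf2a stood at 139, 150.1 and 62.8 in negative and at 231, 398 and 86.3 in positive libraries. These groups overlapped, and each positive library was above the negative library of its own number (log2 fold change 0.86, SE 0.58, adjusted p = 0.39, or 0.112 with the pairing).

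The foxc1a transcript stood at 339.9, 669 and 749 in kdrl negative and at 774, 1582 and 961 in kdrl positive libraries. Its endothelial libraries were all higher, with a log2 change of 0.93 (SE 0.41, adjusted p = 0.209, or 0.0639 with the pairing) and an interval of 0.01 to 1.84. The foxc1b transcript stood at 520.5, 1081 and 592 in negative and at 1167, 1338 and 420.1 in positive libraries. Its groups overlapped at both ends (log2 fold change 0.33, SE 0.48, adjusted p = 0.705), and the interval of -0.75 to 1.40 holds changes in either direction.

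The foxq1a transcript stood at 276, 364 and 345 in kdrl negative and at 1396, 453 and 609 in kdrl positive libraries. All endothelial libraries were higher, replicate 1 most, and the log2 change of 1.16 (SE 0.43, adjusted p = 0.143, or 0.0852 with the pairing) did not pass. Its chromosomal counterpart in the other cluster, foxq1b, passed with a log2 change of 2.09 (SE 0.46, adjusted p = 0.0265). The foxq1b transcript stood at 94.5, 155 and 236 in negative and at 718, 387 and 979 in positive libraries. In the same libraries 4 of 12 epidermal markers passed as higher, and their sum was 425496, 54006 and 396925 in positive against 19197 to 68902 in negative libraries, with none at 0. The part of epidermal RNA in the foxq1 levels was not tested.

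Other markers of the endothelial sort bear on what its libraries held. All 21 endothelial markers passed as higher, at 51026 to 149736 in sum against 3477 to 4104. Of 15 smooth muscle markers 2 passed as higher, with sums of 5019 to 13070 against 2823 to 4898, and 0 of 11 cartilage markers passed as higher and 6 as lower. Of 14 skeletal muscle markers 0 passed as higher and 4 as lower, with sums of 3046 to 6097 against 5916 to 12842. The part of muscle and cartilage cells in the fall of foxf1 was not tested. Of 10 leukocyte markers 8 passed as higher, with sums of 15269 to 48222 against 1074 to 4046. Their part in the foxc1a and foxf2b levels was not tested. Of the 6 genes 3 passed in this line in the authors' deposited table, where 13.3% of genes did, with log2 fold changes of -2.63 for foxf1, 1.44 for foxf2b and 1.06 for foxq1a.

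The mural and endothelial sort effects were set against each other in a fit of 12 libraries, in which a constant scale of either set cancels. The difference passed for foxf1 and foxq1a, 2 of the 6 where 6.11% of genes passed. The foxf1 effect was lower in the kdrl line than in the acta2 line (log2 difference -3.69, SE 0.60, adjusted p = 0.00207), and in 17 alternative fits it stayed between -4.08 and -3.21 and passed in all 17. In the main fit 0 of 14 skeletal muscle markers and 6 of 11 cartilage markers passed as lower, and their part was not tested. The foxq1a effect was higher in the kdrl line by 4.27 (SE 0.76, adjusted p = 0.00386), between 3.62 and 4.62 in the same 17 alternatives, all of which passed. The 12 epidermal markers had a median difference of 3.39 in the main fit, against 0.03 over all genes. Of them 2 passed as higher and 0 as lower, and the part of epidermal RNA in the foxq1a result was not tested. For the other 4 genes the difference did not pass, with 1.79 for foxc1b (adjusted p = 0.185), -0.79 for foxc1a, 0.20 for foxf2a and 0.04 for foxf2b. The interval for foxf2b, -1.83 to 1.92, and that for foxf2a, -1.45 to 1.86, do not show that these genes act alike in the sorts.

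Against the acta2/foxc1b line the difference passed for 1 of the 6, foxf1, where 2.51% of genes passed. The foxf1 effect was again lower in the kdrl line (log2 difference -7.67, SE 0.70, adjusted p = 0.000572; -7.22, adjusted p = 8.78e-05, without acta2/foxc1b negative replicate 2). In the fit of all these libraries 6 of 14 skeletal muscle markers (median -3.93) and 7 of 11 cartilage markers (median -4.16) also passed as lower. Of either list 0 passed as higher, and the median over all genes was 0.07. The part of these cells in the foxf1 difference was not tested. For foxf2a the difference was -3.13 (SE 0.87, adjusted p = 0.0861), and for foxc1a, foxc1b and foxf2b it was -2.73, -1.75 and -2.35, with adjusted p of 0.288 to 0.322. For foxq1a it was 2.99 (SE 1.55, adjusted p = 0.367), so its difference from the acta2 line passed and that from the acta2/foxc1b line did not. Without acta2/foxc1b negative replicate 2 the differences were -3.15 for foxf2a (adjusted p = 0.0524), -1.62 for foxc1a, -2.01 for foxc1b, -1.58 for foxf2b and 1.46 for foxq1a, and 1 of the 6, foxf1, passed against 5.46% of genes. These comparisons share the kdrl libraries, and the age, fixation and kit of the lines differ along with the marked cells.

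Ratios of paralogs within a library were compared next, since gene length and library scale cancel in how such a ratio changes between groups. The log2 ratio of foxc1b over foxc1a stood at 2.55, 2.20 and 0.48 in acta2 negative and at -0.84, -1.55 and -1.93 in acta2 positive libraries. It was lower in all positive libraries, with a mean difference of -3.18, and the exact two-sided permutation p of 0.1 is the smallest that 3 against 3 libraries allow. It stood in the acta2/foxc1b line at -0.44, 3.5 and -0.82 in negative and at -0.73 and -0.95 in positive libraries. These overlapped, and the high value was that of negative replicate 2, where foxc1a rests on 22 reads. Permuted within each line, the mean difference of -2.38 had an exact two-sided p of 0.03, and of 0.12 adjusted over the 4 ratio tests, so it did not pass. Without negative replicate 2 the mean difference was -1.70 (exact permutation p = 0.0333, or 0.133 adjusted). That mean weights the lines equally and came mostly from the acta2 line. In the acta2/foxc1b line the negative values left, -0.44 and -0.82, overlapped the positive ones, -0.73 and -0.95. Across the kdrl line the ratio averaged 0.32 ± 0.57 (SD, n = 3) in negative and -0.28 ± 0.89 (SD, n = 3) in positive libraries (difference -0.60, exact permutation p = 0.4).

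The log2 ratio of foxf2b over foxf2a stood at -0.86, -2.91 and -2.05 in acta2 negative and at 0.02, -1.61 and -1.60 in acta2 positive libraries. It stood at -0.52, -2.86 and -0.49 in acta2/foxc1b negative and at -1.87 and -0.85 in positive libraries. The groups overlapped in both lines, and the mean difference over the lines was 0.40 (exact two-sided permutation p = 0.535, n = 11 libraries), or 0.01 (exact permutation p = 0.983) without acta2/foxc1b negative replicate 2. Across the kdrl line the ratio stood at 0.02, 0.56 and 1.02 in negative and at 0.85, 1.12 and 1.78 in positive libraries, a difference of 0.72 (exact permutation p = 0.2, n = 3 per group). Within the pairs of equal number it was higher in the positive library by 0.83, 0.56 and 0.77, and an exact sign-change permutation of the 3 pairs gave p = 0.25, the smallest it can give. All 6 kdrl libraries were above the highest of the 11 acta2 libraries, but barely so. The lowest of them, kdrl negative replicate 1, stood at 0.0233 and acta2 positive replicate 1 at 0.0178. The sets were made with different kits, and the difference between them was not tested.

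**Figure D3:**
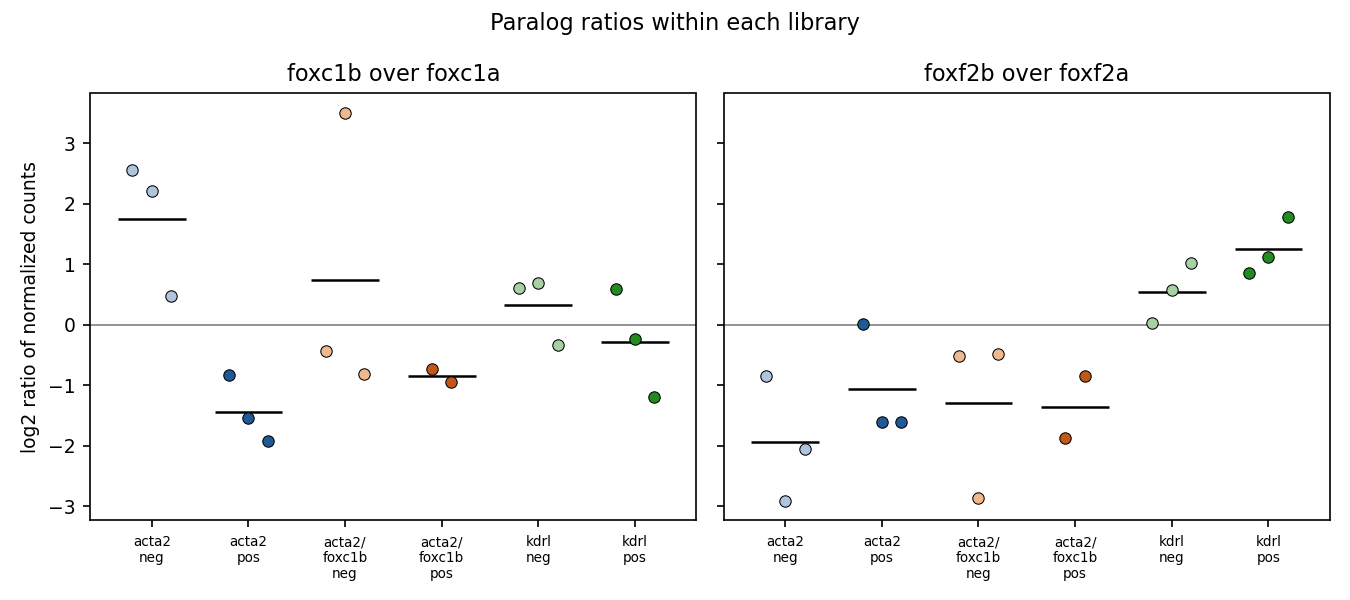
Log2 ratio of the b over the a copy (vertical axis) of foxc1 and of foxf2 in each library, by sorted group; points are libraries and bars are group means. The foxc1 ratio parts acta2 negative (0.48 to 2.55) from acta2 positive libraries (-1.93 to -0.84), and the foxf2 ratio is above 0 in all 6 kdrl libraries and, barely, in acta2 positive replicate 1.

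Among forkhead genes tested over both acta2 lines, 4 of the 6 stood at the high end by log2 fold change. Of 50 such genes foxf1 ranked 1, foxf2b 2, foxc1a 3 and foxf2a 5, and without acta2/foxc1b negative replicate 2 they ranked 1, 2, 3 and 4 in that order. The 6 were chosen with earlier results of these data known, so the ranks given here are a description and not a test. Of the 44 others 1 rose and 9 fell, where 4.99% of all genes rose and 4.86% fell. Their median log2 change was -0.46 against -0.09 over all genes. Without that library 1 rose and 10 fell, and without acta2 negative replicate 3 the number that fell was 5. The 1 that rose was not called without acta2 negative replicate 1 or 2, acta2 positive replicate 1 or 2, or acta2/foxc1b positive replicate 2. Those named by rule were foxa2, a regulator of endoderm and floor plate, at -3.59 (adjusted p = 0.0046), foxe1 at -4.90 (adjusted p = 0.00593) and foxb1b at -3.22 (adjusted p = 0.00958). In the acta2 line alone, of 51 forkhead genes foxn3, not among the 6, ranked 1 at 2.12 (adjusted p = 0.0208). There foxc1a ranked 2, foxf2b 4, foxf1 7 and foxf2a 12. In the acta2/foxc1b line without negative replicate 2, foxl1, also not among the 6, rose by 3.12 (adjusted p = 0.0279). It ranked 4 of 50 there, above foxc1a. The foxl1 transcript stood at 27.3 to 73.1 in kdrl positive against 152 to 216 in kdrl negative libraries. Endothelial cells gave foxf1 the lowest log2 change of 55 forkhead genes, where of the 49 others 1 rose, foxq1b, and 4 fell, among them foxd3, a neural crest gene, at -2.38 (adjusted p = 0.0212). Over all genes 3.17% rose and 2.79% fell in the kdrl line. The count of 4 was 0 without kdrl negative replicate 1, 2 or 3 or without positive replicate 1, and foxq1b was not called without negative replicate 1 or 2 or positive replicate 1.

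**Figure D4:**
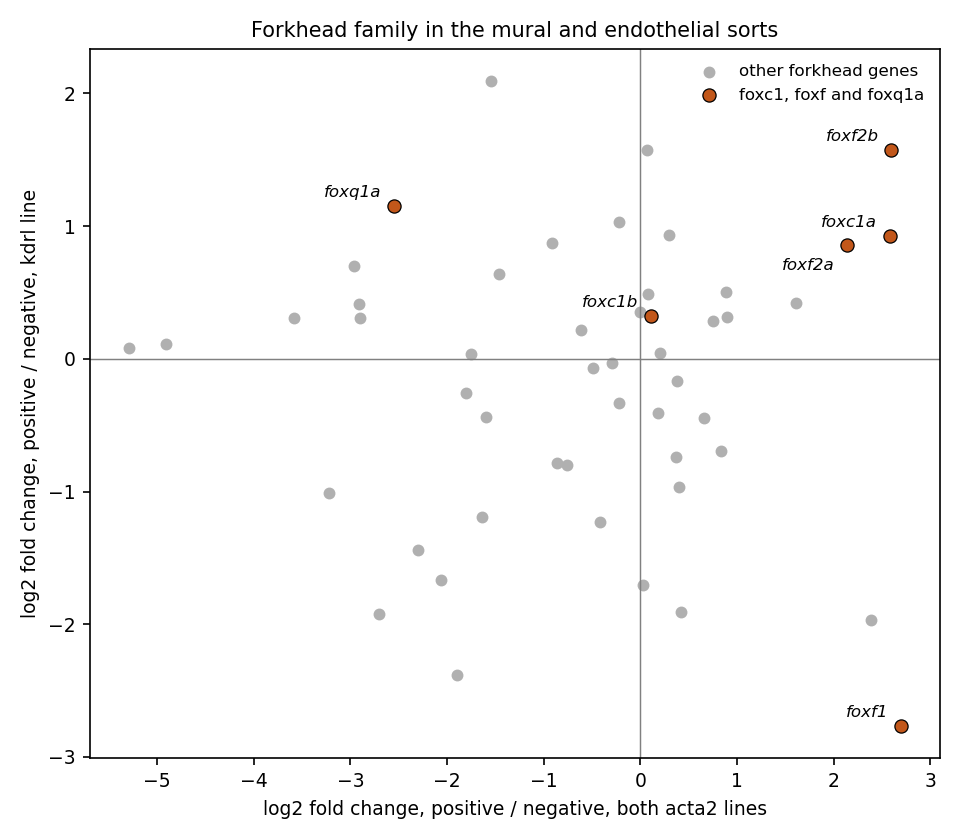
Log2 fold change of positive over negative cells in both acta2 lines together (horizontal) and in the kdrl line (vertical) for 50 forkhead genes tested in both; each point is a gene and the 6 described here are colored and named. foxf1 lies at 2.70 and -2.76, and foxq1a at -2.55 and 1.16.

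Genes of pathways and tissues tied to these factors were counted from lists, beside a median log2 fold change over all genes of -0.09 in both acta2 lines together and -0.05 in the kdrl line. Over both acta2 lines 4.99% of all genes rose and 4.86% fell, and in the kdrl line 3.17% rose and 2.79% fell. The positive cells of the acta2 lines were labelled mural, so counts of pericyte and mural genes there are not independent of the sort. Of 27 such genes 11 rose and 0 fell over both acta2 lines, with a median of 1.17. They included rasl12 at 5.28 (adjusted p = 5.16e-05), mcamb, which encodes an adhesion molecule of mural cells, at 2.72 (adjusted p = 0.00173), and notch3, the Notch receptor of mural cells, at 2.28 (adjusted p = 0.0072). Of 28 tested in the kdrl line 5 rose and 5 fell, among the latter cd248b at -3.28 (adjusted p = 0.00353) and lamc3, a laminin chain gene, at -2.79 (adjusted p = 0.00372). The count over both acta2 lines was 14 without acta2/foxc1b negative replicate 2, 7 without positive replicate 1 or 2 of that line, and 8 to 11 without any other library. In the kdrl line 3 rose and 3 fell without negative replicate 1 or 2, and 3 rose without positive replicate 2.

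Visceral mesenchyme regulators, the context in which Foxf1 is best known, counted 7 of 21 higher and 0 lower over both acta2 lines, with a median of 1.57. The transcription factor genes tcf21 and osr1 stood at 2.68 (adjusted p = 0.00281) and 2.43 (adjusted p = 0.00292), and wnt4a at 2.05 (adjusted p = 0.00334). In the kdrl line 5 of 22 rose and 1 fell, with a median of -0.23, and the leading genes were hlx1 at 4.33 (adjusted p = 0.000833) and gata5 at 2.72 (adjusted p = 0.00874). Without acta2/foxc1b negative replicate 2, 10 rose and 1 fell over both acta2 lines, and without its positive replicate 2, 4 rose. In the kdrl line 2 rose without negative replicate 1, and 3 without negative replicate 2 or 3 or positive replicate 2, while the count that fell ran from 0 to 2 with 1 library left out.

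Of 18 Hedgehog pathway genes 2 rose over both acta2 lines and 0 fell, with a median of 0.79. These were gli2a, a transcription factor gene of the pathway, at 1.22 (adjusted p = 0.0239) and smo, which encodes its signal transducer, at 1.42 (adjusted p = 0.05, just under the threshold). Of 20 tested in the kdrl line 4 fell and 0 rose, among them hhip, a Hedgehog-binding inhibitor, at -2.21 (adjusted p = 0.00455) and gas1b at -1.62 (adjusted p = 0.0196). Over both acta2 lines the count of 2 was 5 without acta2/foxc1b negative replicate 2, where 17.2% of genes passed. It was 0 without acta2 negative replicate 2, acta2 positive replicate 3 or either acta2/foxc1b positive library, 1 without acta2 negative replicate 1 or 3 or acta2 positive replicate 1 or 2, and 2 without acta2/foxc1b negative replicate 1 or 3. The count of 4 in the kdrl line was 1 without negative replicate 1 or 2 or positive replicate 1, and 2 without negative replicate 3.

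Head mesenchyme and neural crest transcription factors, the setting of Foxc1, counted 7 of 44 higher and 0 lower over both acta2 lines, with a median of 0.47. The homeobox genes msx3 and msx1b stood at 2.71 (adjusted p = 0.00183) and 1.74 (adjusted p = 0.005), and osr1 belongs to this list too. In the kdrl line 1 of 44 rose and 12 fell, with a median of -1.46, led by twist2 at -3.89 and gsc at -4.29 (adjusted p = 0.000502 for both). Of these factors 12 rose and 3 fell over both acta2 lines without acta2/foxc1b negative replicate 2, 5 rose and 1 fell without its positive replicate 1, and 5 to 6 rose and 0 fell without any other library. The count of 12 in the kdrl line was 7 without negative replicate 2, and the count of 1 was 0 without negative replicate 1. Of 23 vascular genes linked to FOXC factors 3 rose and 2 fell over both acta2 lines. They included itgb3b at 3.02 (adjusted p = 0.00212), the chemokine receptor gene cxcr4b at -1.93 (adjusted p = 0.00454) and prox1a, a lymphatic regulator, at -1.93 (adjusted p = 0.0156). Of 25 tested in the kdrl line 10 rose and 0 fell, with angpt2a, an angiopoietin gene, at 4.55 and flt1, a VEGF receptor gene, at 4.87 (adjusted p = 0.000502 for both). This list shares flt1, flt4, tie1 and tek with the endothelial markers, all 21 of which passed as higher in that sort. The count is therefore not independent of the sort for endothelial cells. The FOXC-linked counts over both acta2 lines were 6 higher and 3 lower without acta2/foxc1b negative replicate 2. The count that rose was 1 without acta2 negative replicate 2, acta2 positive replicate 3, acta2/foxc1b negative replicate 3 or acta2/foxc1b positive replicate 2.

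The acta2 line taken alone, where 7.00% of genes passed, had 8 of 27 pericyte and mural genes and 5 of 21 visceral mesenchyme regulators higher. It also had 1 of 18 Hedgehog genes higher, 9 of 44 head mesenchyme factors higher and 2 lower, and 2 of 24 FOXC-linked genes in each direction. Without acta2 negative replicate 2, where 1.33% of genes passed, the higher counts of these lists were 4, 1, 0, 2 and 0, and without each other library they ran up to 8, 5, 1, 6 and 1. Taken alone, the acta2/foxc1b line had 0 called genes in each list, where 6 of 22116 genes passed in all. Without its negative replicate 2, 5 pericyte and mural genes and 3 visceral mesenchyme regulators were higher there and 1 FOXC-linked gene lower, against 3.57% of genes.

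The genes whose levels followed each member most closely were taken by Pearson r of log2 values over the 11 libraries of the acta2 lines, among 15896 genes, as a description. These libraries share a sort and a kit, so most genes that part positive from negative cells correlate. For foxc1a they were glis2a, a zinc finger gene, with r = 0.985, tmem176 with 0.985 and ecm2, a matrix protein gene, with 0.983. For foxf2b they were flot2a with 0.968, p3h3, a collagen-modifying enzyme gene, with 0.967 and cercam with 0.966. For foxf2a they were epha7 with 0.960, fn1a, the fibronectin gene, with 0.952 and tgfb3 with 0.948. In the 6 kdrl libraries the matches of foxc1a had r of -0.61, -0.26 and -0.57, those of foxf2b 0.360, -0.15 and -0.63, and those of foxf2a -0.44, -0.15 and 0.498, each in the order named.

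Those most like foxf1 were genes of striated muscle, ckmt2b with r = 0.970, tnnc1b, a troponin gene of slow muscle, with 0.964 and tcap with 0.950. The 14 skeletal muscle markers also summed highest in the acta2/foxc1b positive libraries, at 230045 and 406002 normalized counts, where foxf1 was highest. In the 6 kdrl libraries the r of these genes with foxf1 was 0.994, 0.644 and 0.611. There foxf1 stood at 126 to 210 in negative and at 20.4 to 32.1 in positive libraries, the latter on 9 to 47 reads. A gene that is lower in that sort will tend to correlate with it. The closest to foxq1a were higd2a with 0.951, spaca4l with 0.937 and fnta with 0.929, and foxc1b had the weakest best match, mgat4b with 0.896. Without acta2/foxc1b negative replicate 2 the r of every pair named here lay between 0.880 and 0.981. Among the members themselves foxc1a and foxf2b were the closest pair over the 11 libraries, with r = 0.906, or 0.843 without that library. Over the 6 kdrl libraries this pair had 0.803, below foxf2a and foxf2b with 0.827 and foxc1b and foxf2a with 0.813. The pair foxf1 and foxf2b had 0.884 over the 11, 0.841 without that library and -0.73 over the 6.

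The nearest annotated genes on either side were read as a view of the chromosomal surroundings, in the gene order of RefSeq assembly GRCz12tu. Annotated genes whose symbol is absent from the deposited table were passed over. Among the genes left, the order in the a cluster is mylk4a, foxc1a, ftr93, foxf2a, foxq1a and irf4a, and in the b cluster gmds, foxc1b, foxf2b and foxq1b. Over both acta2 lines mylk4a had a log2 change of 2.27 (adjusted p = 0.097), ftr93 of 0.95 (adjusted p = 0.391), gmds of -1.06 (adjusted p = 0.331) and foxq1b of -1.55 (adjusted p = 0.32), and irf4a was too low to test. None of these passed, with or without acta2/foxc1b negative replicate 2. Beside foxf1, LOC108180013 rose with it, at 106 ± 58.4 normalized counts (SD, n = 5) in positive against 9.31 ± 11.5 (SD, n = 6) in negative libraries of both acta2 lines (log2 fold change 3.90, SE 0.79, adjusted p = 0.00869; 3.42, adjusted p = 0.00315, without acta2/foxc1b negative replicate 2). On the other side mthfsd had a log2 change of -1.77 (adjusted p = 0.241). The kdrl line gave LOC108180013 a log2 change of -2.09 (adjusted p = 0.16). The foxq1b transcript shared the high value of foxq1a in acta2/foxc1b negative replicate 2, at 3155 against 43.3 and 110.0 in its replicates.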

How the data were processed

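Polyadenylated RNA was sequenced in 17 libraries. Per the submitters' processing notes, bcl2fastq 2.14, CASAVA 1.8.2, featureCounts 1.5.2, DESeq2 1.20.0 and build GRCz11 were used; aligner, annotation and strand setting were not given in the sources. The deposited signal values are counts that the authors divided by size factors: 100% were whole multiples of a library's step within 0.1 read. The log2 fold changes, their standard errors (score values) and p-values as deposited are the authors'. Whether those fold changes were shrunken was not given.

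Genes reaching 10 in at least the smaller group's number of libraries were tested with limma 3.58.1 (R 4.3.3). Alternatives were pseudocounts of 0.5 and 5, no filter, quantile normalization, a replicate block, leaving out each library, and edgeR 4.0.16 and DESeq2 1.42.0 on recovered reads. The fits were tested on simulated data. Deviations of same-numbered kdrl libraries correlated at 0.475, 0.128 and 0.422, so the kdrl pairing comes from the data. Reads carry no molecular identifiers. The members and lists were chosen with earlier results of these data known. Named genes were the members, the reporter genes, up to 3 called genes a list over both acta2 lines and up to 2 in the kdrl line by adjusted p, the 3 most alike per member, and chromosome neighbours. Besides these, foxn3 and foxl1 were named for comparison, and flt4, tie1 and tek as genes shared between lists.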

Additional observations from a re-analysis of the deposited data

Results flagged for a closer look

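The foxf1 sort effect differed between the kdrl and acta2 lines by -3.69 on the log2 scale (adjusted p = 0.00207, limma interaction term), with lower values in all kdrl positive than negative libraries and overlapping groups in the acta2 line. Between the kdrl and acta2/foxc1b lines it differed by -7.67 (adjusted p = 0.000572), where the groups parted without overlap in opposite directions. There 6 of 14 skeletal muscle and 7 of 11 cartilage markers also passed as lower, and their part was not tested. The foxq1a effect differed between the kdrl and acta2 lines by 4.27 (adjusted p = 0.00386), lower in all 3 acta2 positive libraries and higher in all 3 kdrl positive ones. Epidermal markers went the same way, with a median difference of 3.39 against 0.03 over all genes and 2 of 12 passing as higher. The part of epidermal RNA in the foxq1a result was not tested. Between the kdrl and acta2/foxc1b lines the foxq1a difference was 2.99 and did not pass (adjusted p = 0.367). These tests share the kdrl libraries, which also differ in age, fixation and kit.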

How the results depend on the processing

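Settings other than leaving out a library moved the number of the 6 genes called as follows, each beside the share of all genes called under it. In the acta2 line, where limma called 2, the replicate block called 3 (5.08% of genes), with foxc1b lower at an adjusted p of 0.0371. In the acta2/foxc1b line, where limma called 0, quantile normalization called 1 (0.425%), DESeq2 4 (7.65%) and the block 1 (1.27%). In the kdrl line, where limma called 1, DESeq2 called 3 (12.7%) and the block 2 (13.5%). Over both acta2 lines, where limma called 4, the block called 1, foxq1a (adjusted p = 0.0233; 5.57%), and quantile normalization and DESeq2 called 5 (11.2 and 17.6%). There edgeR also called 4 (8.19%), with foxq1a in place of foxf2a. Between the negative cells, where limma called 0, quantile normalization called 2 (0.0758%). List counts moved too: Hedgehog genes lower in the kdrl line ran from 1 to 9 over all alternatives, and in the acta2/foxc1b line DESeq2 called 9 pericyte and mural genes and 9 visceral regulators higher. With 1 library left out the counts ran from 0 to 2 in the acta2 line, 0 to 2 in the acta2/foxc1b line, 1 to 2 in the kdrl line, 0 to 5 over both acta2 lines and 0 to 1 between positive cells. An arm left with 1 library is assumed to vary like the others. Some small values changed sign: foxc1b over both acta2 lines was -0.13 under the block, and edgeR gave -0.13 for foxq1a (acta2/foxc1b minus acta2 effect), -0.15 for foxf2b (kdrl minus acta2 effect) and 0.38 for foxq1a (negative cells). With 1 library left out, foxc1b over both acta2 lines ran from -0.52 to 0.50, foxf2a and foxf2b (kdrl minus acta2 effect) from -0.29 to 0.80 and -0.39 to 0.85, and foxq1a between negative cells from -2.52 to 0.10. Between positive cells foxc1a ran from -1.28 to 0.34, foxc1b from -0.58 to 0.83, foxf2b from -0.20 to 1.36 and foxq1a from -0.51 to 1.08. The causes were not tested. In the acta2 and acta2/foxc1b lines same-numbered libraries share only a number, with correlations of 0.01, -0.02 and -0.01, and of 0.14 and 0.06.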
